A study of Mus musculus with 6 samples.

Results

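Respiratory chain genes code for the subunits and assembly factors of the 5 protein complexes that carry out oxidative phosphorylation in mitochondria. They were taken by symbol from the 18122 gene columns of the count table. The nuclear genes were those whose symbols begin with Nduf, Sdh, Uqcr, Atp5 or Cox followed by a digit, without names that carry the pseudogene tag. The mitochondrial genes were mt-Nd, mt-Co, mt-Atp and mt-Cytb. This gave 120 genes, 107 in the nuclear genome and 13 in the mitochondrial genome. Of the nuclear genes, 3 assigned to complex I and 2 to complex IV are annotated as processed pseudogenes, although their symbols carry no tag. Complex I held 54 of them, complex II 8, complex III 9, complex IV 30 and complex V 19.

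Complexes I and II take electrons from NADH and succinate, complex III passes them to cytochrome c, complex IV hands them to oxygen, and complex V, the ATP synthase, makes ATP from the proton gradient that complexes I, III and IV build. Every complex but complex II is assembled from subunits of both genomes, with the mitochondrial genome supplying subunits of the membrane-embedded cores. Lung group 2 innate lymphoid cells (ILC2s), lymphocytes without antigen receptors that secrete type 2 cytokines, are known to draw on mitochondrial respiration.

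RNA was measured in ILC2s that were sorted out of mouse lung and kept in culture, in 3 libraries from wild-type animals (WT, genotype label BALB/C BYJ) and 3 from animals carrying a targeted allele of the inducible co-stimulator gene Icos (ICOS KO, label C.129S4-Icostm1Shr/J). The age of the mice, any treatment and the culture time are not stated in the labels. The strain name and the Icos allele go together, so the loss of Icos and strain DNA cannot be told apart. Whether the 3 libraries of a group stem from different mice or cultures is not stated either, and p-values therefore reflect a spread among libraries that may be technical.

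Library totals ranged from 13738062 to 18736474 estimated counts, and 3 reads corresponded to 0.16 to 0.218 CPM, the count in a library scaled to 1000000 counts. That limit covers counting error only. Icos stood at 434, 462 and 502 CPM in WT and 139.9, 170.2 and 161 CPM in ICOS KO (edgeR adjusted p = 1.27e-05). Of 10 ILC2 markers 2 were called higher (Il1rl1 and Klrg1) and 1 lower (Rora), of which Klrg1 alone kept its call whichever library was left out, and their summed level was 9601 to 10690 CPM in WT and 9763 to 10650 CPM in ICOS KO. Of 8 tested mast cell and basophil markers 7 fell, from a summed 347 to 403 CPM in WT to 57.7 to 70.2 CPM in ICOS KO. B and plasma cell markers, 2 of 7 tested called higher, summed to 1636 to 2562 CPM in WT and 2818 to 3069 CPM in ICOS KO. The mitochondrial genome took between 0.263% and 0.616% of the counts of a library.

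The comparison asked which respiratory chain genes differed between ICOS KO and WT ILC2s. Of the 120 genes, 117 passed the filter on low counts, 104 nuclear and all 13 mitochondrial. None passed the test at an adjusted p of 0.05 over all 13691 tested genes (edgeR quasi-likelihood test with Benjamini-Hochberg adjustment), with 0 called higher and 0 lower, against 3.29% of all tested genes called, 1.29% higher and 2.01% lower. The differences nevertheless lay on 1 side. The log2 fold change was positive in 111 of the 117 genes, 98 of 104 nuclear and 13 of 13 mitochondrial, against 49.6% of all tested genes. An unadjusted p under 0.05 was reached by 65 of them with a higher level in ICOS KO (55 nuclear, 10 mitochondrial) and by 0 with a lower level, against 19.9% of all tested genes in either direction, 9.64% higher and 10.2% lower. These genes share the same 6 libraries and are short, with a median length of 875 bases beside 2713. Of all tested genes under 700 bases, 85.3% were positive. After removal of a length and GC trend described below, 75 of 104 nuclear and 13 of 13 mitochondrial genes were positive.

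The sizes were small for nuclear genes and larger for mitochondrial ones. The median log2 fold change was 0.29 over the nuclear genes (range -0.32 to 0.82) and 0.82 over the mitochondrial genes (0.35 to 1.08), beside -0.004 over all tested genes. The nuclear genes include 3 tested processed pseudogenes, and the top of the nuclear range is 1 of these. The highest nuclear gene outside them was Cox6a2 at 0.67 ± 0.42 (SE), with only 1.53 to 4.21 CPM. Every ICOS KO library exceeded every WT library in 26 of the 117 genes, all nuclear, against 11.9% of all tested genes, and the reverse held in 0, against 12.5%. The 3 genes that were not tested, Cox4i2, Cox20b and Ndufa11b, reached at most 0.646 CPM in any library. In bulk RNA of cultured cells, fewer cells of a type and less RNA per cell cannot be told apart.

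The 0 calls depended on the tool and on single libraries. DESeq2 called 11 of the 117 genes higher (8 nuclear and 3 mitochondrial, against 3.03% of all tested genes called higher by it), limma voom 0, and limma voom with quality weights 13 (against 2.91%). Without ICOS KO replicate 1, 36 were called higher (against 3.47%), and without WT replicate 3, 5 were, all mitochondrial (against 1.07%). Without ICOS KO replicate 2 the medians were 0.19 for nuclear and 0.47 for mitochondrial genes. No alternative called any of these genes lower.

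**Figure D1:**
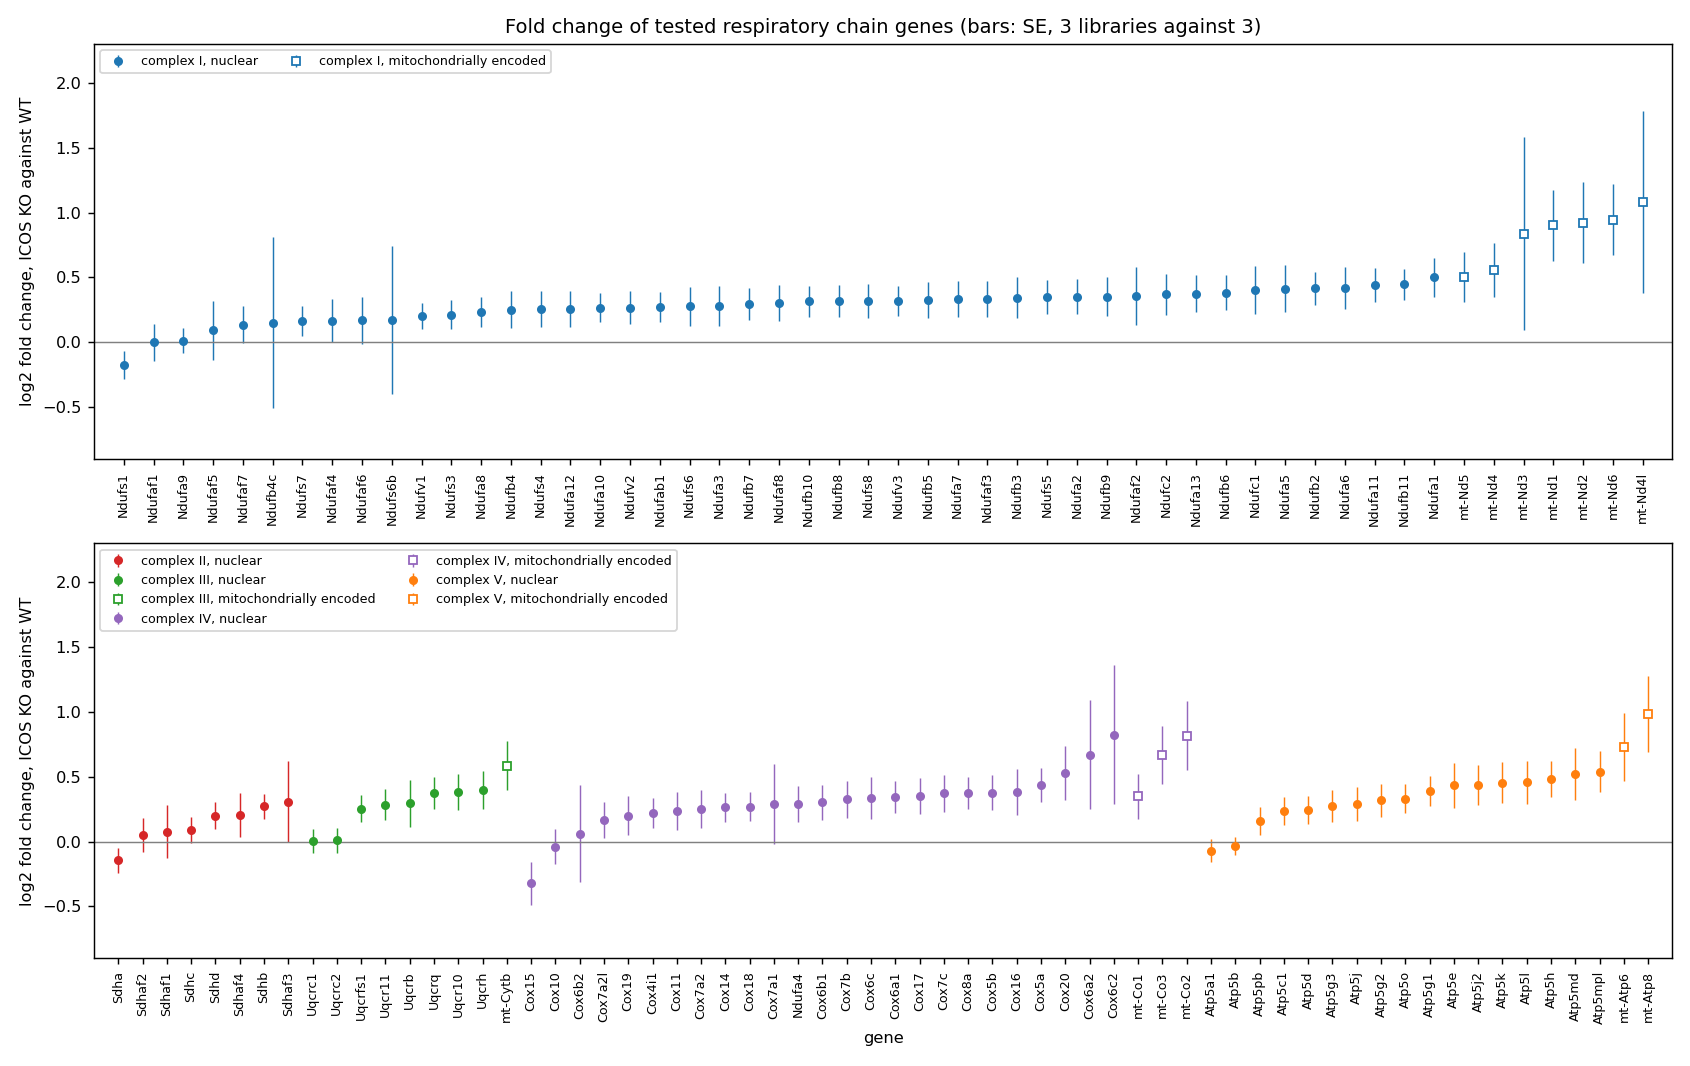
Log2 fold change of ICOS KO against WT (y axis) for 116 of the 117 tested respiratory chain genes (x axis), complex I in the upper panel and complexes II to V in the lower one, with the standard error of each fit as a bar. Filled circles are nuclear genes and open squares mitochondrial genes. Nearly all points lie above 0, the mitochondrial squares sit highest within complexes I, III and V, and Ndufs1, Sdha, Cox15, Cox10, Atp5a1 and Atp5b lie below 0.

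The 6 libraries were not split cleanly by genotype. Relative to the mean of the WT libraries, the median log2 level of the 104 nuclear genes was -0.14, 0.02 and 0.11 in WT replicates 1 to 3 and 0.09, 0.52 and 0.26 in ICOS KO replicates 1 to 3. That of the 13 mitochondrial genes was -0.27, -0.18 and 0.40 in WT and 0.20, 1.21 and 0.76 in ICOS KO. ICOS KO replicate 2 was the highest library for 77 of the 104 nuclear and 11 of the 13 mitochondrial genes, and WT replicate 1 the lowest for 72 and 8. ICOS KO replicate 1 lay below WT replicate 3 in 60 of the 104 nuclear and 13 of the 13 mitochondrial genes, so the groups overlapped for every mitochondrial gene. The same order of libraries held for the nuclear noncoding RNA Malat1, which stood at 610, 664 and 996 CPM in WT and 811, 1687 and 1413 CPM in ICOS KO (edgeR adjusted p = 0.104). The mitochondrial ribosomal RNA mt-Rnr2 stood at 652, 800.5 and 1103 CPM in WT and 807, 1885 and 1309 CPM in ICOS KO (edgeR adjusted p = 0.194). The part of these library differences in the results was not tested.

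**Figure D2:**
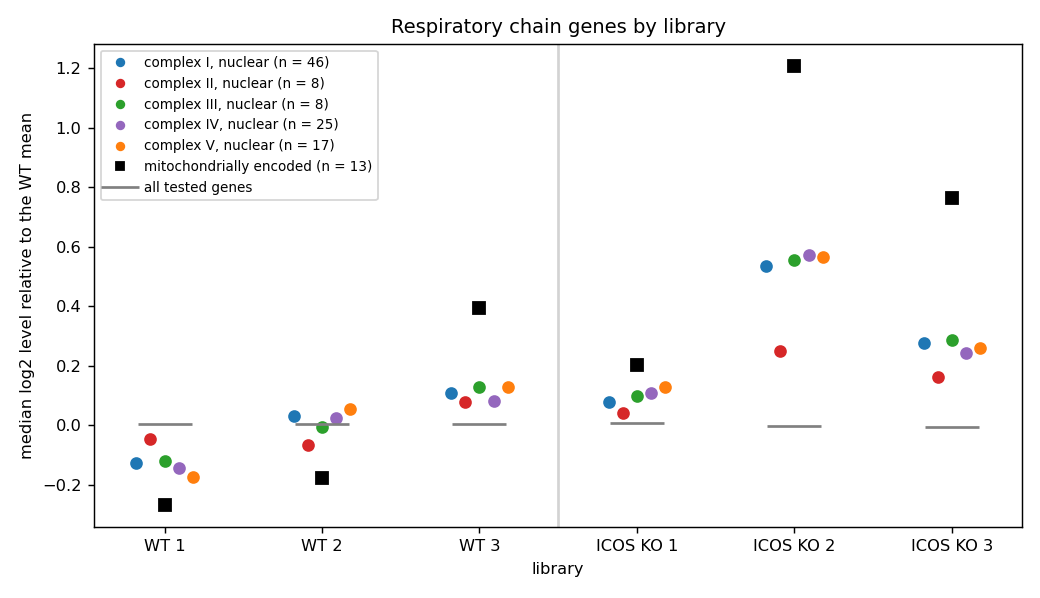
Median log2 level relative to the mean of the WT libraries (y axis) in each library (x axis), for the nuclear genes of each complex (circles), the 13 mitochondrial genes (squares) and all tested genes (bars). ICOS KO replicate 2 is highest in each set of respiratory chain genes, WT replicate 3 and ICOS KO replicate 1 lie close together, and all tested genes stay near 0.

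Promoters of respiratory chain genes are known for sites of nuclear respiratory factor 1 (Nrf1), the ETS factor GABP and YY1, and the promoters of 7 genes described below are shown for that reason. Promoter windows of 300 bases, from 250 before to 50 after the start, were found in the RefSeq set (GRCm38.p6) for 85 of the 107 nuclear genes, in 91 windows. The core motif of Nrf1, GCATGCGC, occurred in 12 of the 91 windows (13.2%), beside 5.22% of the windows of all tested genes and 2.71% of all promoters. The ETS motif CCGGAAG, read on the other strand as CTTCCGG, occurred in 28 windows (30.8%), beside 18.2% and 8.86%. The YY1 motif AAGATGGCG occurred in 9 windows (9.89%), beside 3.09% and 1.4%. All were searched on both strands, and a match is a string of letters, not a shown binding site. The 170 bases before the start are printed 5′ to 3′ on the strand of the gene, with matches to the motifs in capitals (where the Nrf1 core matches on both strands, the 2 matches overlap and form a run of 10). The window of Cox5a held no match to any of these motifs. The 7 genes were picked without a fixed rule, so their matches do not give the share among the genes described. Of genes described below but not shown, Ndufb7, Cox8a, Sdhd, Cox6b1, Cox15 and Atp5e held the ETS motif. No match was held by Ndufb11, Ndufb2, Ndufab1, Ndufa4, Sdha, Uqcr10, Cox6b2, Cox7a1, Cox7a2, Cox7a2l, Atp5b, Atp5c1, Atp5d, Atp5g1 or Atp5g3. Ndufs1, Sdhc, Uqcrq, Uqcrc2, Cox4i1 and Atp5mpl were among the genes without a window.
Ndufa11 (chr17:56717592-56717761, plus strand, GRCm38.p6): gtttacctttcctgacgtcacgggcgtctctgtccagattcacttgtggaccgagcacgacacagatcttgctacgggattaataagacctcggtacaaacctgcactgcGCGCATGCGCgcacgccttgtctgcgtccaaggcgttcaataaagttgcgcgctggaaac
Sdhb (chr4:140961101-140961270, plus strand, GRCm38.p6): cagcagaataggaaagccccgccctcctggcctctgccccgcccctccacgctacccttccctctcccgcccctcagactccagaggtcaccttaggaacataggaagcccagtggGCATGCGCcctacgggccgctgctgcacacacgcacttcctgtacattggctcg
Uqcrh (chr4:116075071-116075240, minus strand, GRCm38.p6): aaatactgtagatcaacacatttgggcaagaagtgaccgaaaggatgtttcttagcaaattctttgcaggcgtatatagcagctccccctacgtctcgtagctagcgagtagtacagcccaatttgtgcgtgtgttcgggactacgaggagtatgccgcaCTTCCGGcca
Cox6a1 (chr5:115348959-115349128, minus strand, GRCm38.p6): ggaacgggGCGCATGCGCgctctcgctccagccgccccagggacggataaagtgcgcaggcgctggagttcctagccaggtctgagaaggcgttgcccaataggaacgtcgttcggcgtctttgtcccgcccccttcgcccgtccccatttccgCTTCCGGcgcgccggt
Atp5h (chr11:115419920-115420089, minus strand, GRCm38.p6): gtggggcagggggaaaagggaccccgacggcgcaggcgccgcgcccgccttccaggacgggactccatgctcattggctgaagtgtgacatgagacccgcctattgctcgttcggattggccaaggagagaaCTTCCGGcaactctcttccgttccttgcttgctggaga
Atp5g2 (chr15:102671048-102671217, minus strand, GRCm38.p6): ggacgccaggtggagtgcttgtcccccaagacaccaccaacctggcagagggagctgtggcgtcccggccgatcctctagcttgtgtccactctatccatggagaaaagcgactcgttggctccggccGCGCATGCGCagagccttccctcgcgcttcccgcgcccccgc
Cox5a (chr9:57521062-57521231, plus strand, GRCm38.p6): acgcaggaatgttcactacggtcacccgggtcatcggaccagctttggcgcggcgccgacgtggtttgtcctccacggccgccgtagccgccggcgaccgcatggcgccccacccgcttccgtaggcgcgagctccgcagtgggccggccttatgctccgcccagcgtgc

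In complex I, 45 of 46 tested nuclear genes had a positive log2 fold change, with a median of 0.30. In 10 of the 46 every ICOS KO library was above every WT library, against 11.9% of all tested genes. The smallest p of all nuclear genes was that of Ndufb11, an accessory subunit of the membrane arm (chromosome X, 20615326 to 20617619, minus strand, GRCm38). Ndufb11 stood at 164, 189.8 and 175 CPM in WT and 205, 283 and 234 CPM in ICOS KO. All ICOS KO libraries were above all WT libraries, and the log2 fold change was 0.45 ± 0.12 (SE; adjusted p = 0.0777, edgeR), the value nearest to the threshold of 0.05 among the respiratory chain genes. It overlaps Rbm10 on the other strand, and whether counting used strand is not stated. Ndufa11, a small accessory subunit of the membrane arm whose promoter carries the Nrf1 motif above, stood at 169.5, 199.8 and 192 CPM in WT and 212, 301 and 250.3 CPM in ICOS KO. Its libraries were also separated, with a log2 fold change of 0.44 ± 0.13 (SE; adjusted p = 0.0942, edgeR).

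Core subunits of complex I, which hold the electron carriers and the quinone site, had smaller values. Ndufs1, the largest iron-sulfur subunit, was named after its values were seen. Its libraries read 130.1, 125 and 126 CPM in WT and 126, 99.4 and 112 CPM in ICOS KO, with overlapping groups and a log2 fold change of -0.18 ± 0.11 (SE; adjusted p = 0.379, edgeR). Over the 7 nuclear core subunits the median was 0.21, over 29 other subunits 0.33 and over 8 assembly factors 0.17. The highest level per kilobase of transcript was that of Ndufb7, an accessory subunit on the intermembrane face, with a mean of 560 CPM per kilobase in WT and 688 in ICOS KO. Its libraries ran 334, 386 and 326 CPM in WT and 369, 512 and 405 CPM in ICOS KO, with WT replicate 2 above ICOS KO replicate 1.

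Complex II, succinate dehydrogenase, is the only complex with no mitochondrial subunit. As fitted, its median of 0.15 over 8 genes, of which 7 were positive, was the lowest of the 5. Its transcripts were also the longest, with a median of 2695 bases against 723 to 977 for the nuclear genes of the other complexes. After the removal of a length and GC trend described below, its median was no longer the lowest. Sdha, Sdhb, Sdhc and Sdhd were then at -0.02, 0.14, 0.23 and 0.10, beside 0.071 over the nuclear genes. Sdha, the flavoprotein that oxidises succinate, stood at 324, 305 and 315 CPM in WT and 315, 262 and 276 CPM in ICOS KO. Here ICOS KO replicates 2 and 3 were below every WT library and replicate 1 within them, and the log2 fold change was -0.14 ± 0.10 (SE; adjusted p = 0.415, edgeR). Sdhb, the iron-sulfur subunit, lay the other way with 471, 468 and 509.9 CPM in WT and 519, 629 and 604 CPM in ICOS KO. Its groups did not overlap and its log2 fold change was 0.27 ± 0.10 (SE; adjusted p = 0.154, edgeR). Of the membrane anchors, Sdhc stood at 125, 109.6 and 128 CPM in WT and 126, 133 and 127 CPM in ICOS KO, with overlapping groups. Sdhd stood at 274, 273 and 326 CPM in WT and 307, 342 and 356 CPM in ICOS KO, where WT replicate 3 exceeded ICOS KO replicate 1. The 4 assembly factors had a median of 0.14.

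In complex III all 8 nuclear genes were positive, with a median of 0.29. Uqcrq, a small subunit next to cytochrome b, stood at 349, 398 and 389 CPM in WT and 418, 596 and 461 CPM in ICOS KO, without overlap (log2 fold change 0.38 ± 0.13, SE; adjusted p = 0.139, edgeR). Uqcrh, the hinge protein that helps cytochrome c to dock, stood at 135, 152 and 181 CPM in WT and 173, 248 and 196 CPM in ICOS KO. WT replicate 3 was above ICOS KO replicate 1, and the log2 fold change was 0.40 ± 0.14 (SE; adjusted p = 0.165, edgeR). Uqcrc2, a large core protein named after its values were seen, stood at 203, 184 and 219 CPM in WT and 205, 196 and 209 CPM in ICOS KO, with a log2 fold change of 0.01 ± 0.10 (SE). Uqcr10, with the highest level per kilobase in the complex, had a mean of 509.8 CPM per kilobase in WT and 664 in ICOS KO, and libraries at 198, 223 and 243 CPM in WT and 238, 352 and 274 CPM in ICOS KO. WT replicate 3 was again above ICOS KO replicate 1. Cyc1, the cytochrome c1 subunit, which the symbol rule leaves out, stood at 362, 395 and 381 CPM in WT and 407, 464 and 409 CPM in ICOS KO (log2 fold change 0.17 ± 0.09, SE; adjusted p = 0.316, edgeR).

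In complex IV 23 of 25 tested nuclear genes were positive, with a median of 0.30. Cox5a, a subunit on the matrix side, stood at 242, 254 and 311 CPM in WT and 303, 421 and 368 CPM in ICOS KO. WT replicate 3 was above ICOS KO replicate 1, and the log2 fold change was 0.44 ± 0.13 (SE; adjusted p = 0.105, edgeR). Cox8a, a small membrane subunit, stood at 366, 454 and 429.7 CPM in WT and 489.9, 639 and 491 CPM in ICOS KO, without overlap (log2 fold change 0.37 ± 0.12, SE; adjusted p = 0.131, edgeR). Cox6a1 had the highest level per kilobase, a mean of 1059 CPM per kilobase in WT and 1343 in ICOS KO. Its libraries were at 552, 635 and 627 CPM in WT and 636, 903 and 762 CPM in ICOS KO, separated with ICOS KO replicate 1 just above the WT libraries. Cox15, an enzyme of heme A synthesis named after its values were seen, had the lowest log2 fold change of all nuclear genes, -0.32 ± 0.17 (SE; adjusted p = 0.303, edgeR). Its libraries read 56.6, 56.3 and 46.5 CPM in WT and 48.8, 31.6 and 47.1 CPM in ICOS KO, with WT replicate 3 below ICOS KO replicates 1 and 3.

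Several complex IV subunits exist as a widely expressed form and a form of muscle, lung or testis, and the ILC2s used the widely expressed forms. Cox4i1 stood at 576, 671 and 664 CPM in WT and 629.7, 858 and 744 CPM in ICOS KO, whereas Cox4i2, known as the lung and hypoxia form, stood at 0.262, 0.316 and 0.197 CPM in WT and 0, 0 and 0.0742 CPM in ICOS KO. Most of these Cox4i2 values are close to or under the level of 3 reads, and no fold is given. Cox6a2 reached 1.53 to 4.21 CPM, Cox6b2 2.07 to 3.46 CPM and Cox7a1 3.16 to 5.20 CPM over the 6 libraries, with adjusted p of 0.387, 0.942 and 0.631 (edgeR). Their partners ran far higher. Cox6b1 stood at 379, 453 and 510.2 CPM in WT and 486, 661 and 508 CPM in ICOS KO, and Cox7a2 at 291, 339.6 and 361 CPM in WT and 327, 494 and 360.1 CPM in ICOS KO, both with WT replicate 3 above an ICOS KO library. Cox7a2l, which ties complexes III and IV into supercomplexes, stood at 83.1, 77.7 and 76.2 CPM in WT and 69.4, 104 and 92.7 CPM in ICOS KO. Ndufa4, named for complex I but a subunit of complex IV, stood at 192, 225 and 271 CPM in WT and 252, 326 and 261 CPM in ICOS KO, again with overlap.

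In complex V 15 of 17 nuclear genes were positive, with a median of 0.33. Its 5 core subunits had a median of 0.235, with 3 positive (Atp5c1 at 0.24, Atp5d at 0.25 and Atp5e at 0.43 on the log2 scale, edgeR adjusted p of 0.256, 0.237 and 0.194) and 2 negative, and overlapping groups in all 5. Atp5b, the catalytic beta subunit, was the most abundant nuclear gene of all 5 complexes per kilobase in WT, at 1116 CPM per kilobase beside 1091 in ICOS KO. Its libraries read 2156, 2112 and 2147 CPM in WT and 2196, 1996 and 2079 CPM in ICOS KO, a log2 fold change of -0.03 ± 0.07 (SE; adjusted p = 0.836, edgeR) with overlapping groups. Atp5a1, the alpha subunit, named after its values were seen, stood at 1052, 977 and 1029 CPM in WT and 1008, 871 and 1036 CPM in ICOS KO, a log2 fold change of -0.07 ± 0.09 (SE). ICOS KO replicate 2 was the lowest library for both, although it was the highest for most respiratory chain genes.

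The 12 other subunits of complex V had a median of 0.42 and were all positive. In 7 of these 12 every ICOS KO library was above every WT library, against 11.9% of all tested genes. They are short, with a median length of 727 bases beside 2713 for all tested genes, and short genes were mostly positive, as described below. The difference between the core and the other subunits was not tested. Atp5h, subunit d of the peripheral stalk (chromosome 11, 115415689 to 115419962, minus strand, GRCm38), stood at 246, 304 and 332 CPM in WT and 350.5, 485 and 395 CPM in ICOS KO, a log2 fold change of 0.48 ± 0.14 (SE; adjusted p = 0.0882, edgeR). Atp5mpl, a very small membrane subunit, stood at 68.8, 75.7 and 83.4 CPM in WT and 89.0, 141 and 101 CPM in ICOS KO, a log2 fold change of 0.54 ± 0.16 (SE; adjusted p = 0.0973, edgeR). In both genes every ICOS KO library was above every WT library.

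The 3 genes of subunit c, which forms the rotor ring and has the same mature protein from each gene, were compared as a set of paralogs, among which estimated counts may be divided. Atp5g1 stood at 262, 302 and 296 CPM in WT and 331, 439 and 358 CPM in ICOS KO, a log2 fold change of 0.39 ± 0.12 (SE; adjusted p = 0.0987, edgeR). Atp5g2, whose promoter carries the Nrf1 motif, stood at 121, 141 and 146 CPM in WT and 152, 201 and 156 CPM in ICOS KO. Both were separated by genotype. Atp5g3 was the most abundant of the 3, with a mean of 437 CPM in WT against 287 for Atp5g1 and 136 for Atp5g2. Per kilobase the WT values were 605, 60.8 and 186, which rest on annotated lengths of 723, 4715 and 731 bases. Whether these transcripts were the ones expressed was not tested, so the place of Atp5g1 per kilobase is uncertain. The libraries of Atp5g3 overlapped (380.2, 427 and 505 CPM in WT, 468, 602 and 520.2 CPM in ICOS KO). The ATP synthase inhibitor Atpif1, outside the symbol rule, had a log2 fold change of 0.18 ± 0.15 (SE; adjusted p = 0.514, edgeR).

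The 13 mitochondrial genes, known to be transcribed as long joint precursors from the circular genome, all had positive log2 fold changes and overlapping groups. The median was 0.90 over the 7 genes of complex I, 0.67 over the 3 of complex IV, 0.59 for mt-Cytb of complex III and 0.86 over the 2 of complex V. mt-Co1, the catalytic subunit of complex IV, stood at 548, 591 and 858 CPM in WT and 665, 902 and 978 CPM in ICOS KO. It had the lowest log2 fold change of the 13, 0.35 ± 0.17 (SE; adjusted p = 0.284, edgeR), and ICOS KO replicate 3 was its highest library. mt-Co2 stood at 102, 147 and 182 CPM in WT and 151, 356 and 253 CPM in ICOS KO, and mt-Co3 at 248, 292 and 387 CPM in WT and 349.8, 691 and 433 CPM in ICOS KO. Their log2 fold changes were 0.82 ± 0.27 and 0.67 ± 0.22 (SE).

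mt-Cytb, cytochrome b, stood at 397, 419 and 610.4 CPM in WT and 512, 847 and 781 CPM in ICOS KO (log2 fold change 0.59 ± 0.19, SE; adjusted p = 0.131, edgeR). In complex V, mt-Atp6 stood at 101, 97.2 and 184 CPM in WT and 145, 282 and 208 CPM in ICOS KO. mt-Atp8, whose reading frame overlaps that of mt-Atp6, stood at 8.44, 8.57 and 16.4 CPM in WT and 14.5, 28.3 and 22.9 CPM in ICOS KO, a log2 fold change of 0.98 ± 0.29 (SE; adjusted p = 0.102, edgeR). In each of these 3 genes WT replicate 3 was above ICOS KO replicate 1 and below ICOS KO replicates 2 and 3.

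Of the mitochondrial complex I genes, which code for the proton-pumping membrane arm, mt-Nd6 had the smallest p. It is read from the strand opposite to the other 12 genes (mitochondrial genome, 13552 to 14070, minus strand, GRCm38). Its libraries read 12.9, 12.0 and 23.7 CPM in WT and 22.4, 41.3 and 29.7 CPM in ICOS KO, a log2 fold change of 0.95 ± 0.28 (SE; adjusted p = 0.0947, edgeR). mt-Nd1 stood at 134, 148 and 253 CPM in WT and 205, 459 and 335 CPM in ICOS KO, and mt-Nd2 at 26.2, 29.7 and 56.6 CPM in WT and 41.7, 98.2 and 72.7 CPM in ICOS KO, with adjusted p of 0.106 and 0.144 (edgeR). mt-Nd4 stood at 105, 104 and 149 CPM in WT and 119, 224 and 183 CPM in ICOS KO. mt-Nd5 stood at 109, 114 and 162 CPM in WT and 129, 226 and 190.0 CPM in ICOS KO, and its 3′ end overlaps mt-Nd6 on the other strand. In these 5 genes, too, WT replicate 3 exceeded ICOS KO replicate 1. mt-Nd3 (0.786, 2.42 and 3.02 CPM in WT, 2.33, 8.19 and 0.594 CPM in ICOS KO) and mt-Nd4l (2.10, 1.05 and 1.31 CPM in WT, 0.452, 2.71 and 6.38 CPM in ICOS KO) were at the low end of detection and varied the most, with SEs of 0.74 and 0.70 on the log2 scale.

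**Figure D3:**
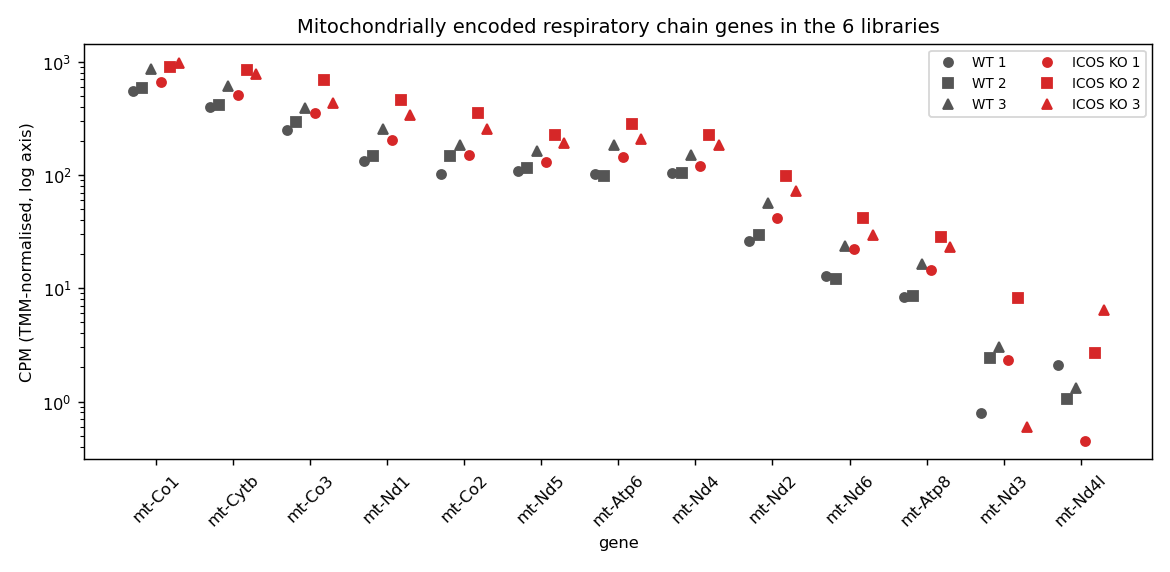
TMM-normalised CPM on a log axis (y axis) of the 13 mitochondrial genes (x axis) in the 3 WT libraries (gray) and 3 ICOS KO libraries (red), with the marker shape giving the replicate number. For most genes ICOS KO replicate 2 is highest, while WT replicate 3 lies above ICOS KO replicate 1 in 13 of 13.

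The makeup of the mitochondrial reads was similar but not identical between genotypes. mt-Co1 made up 30.6%, 30.1% and 29.7% of the reads of the 13 genes in WT and 28.2%, 21.7% and 28.0% in ICOS KO, and mt-Cytb 22.1%, 21.3% and 21.1% in WT and 21.7%, 20.3% and 22.4% in ICOS KO. The share of mt-Co1 was lower in every ICOS KO library, that of mt-Cytb overlapped. The summed mitochondrial genes were 0.0941, 0.0942 and 0.132 of the summed nuclear genes in WT and 0.109, 0.153 and 0.146 in ICOS KO. This ratio was lower in ICOS KO replicate 1 than in WT replicate 3, and the difference between the genomes was not tested.

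Taken by kind of subunit rather than by complex, the medians of the first fit were unequal, and their difference was not tested. After the removal of a length and GC trend described below, the other subunits no longer had a higher median than the core subunits. Within complexes I and V they still did. The 62 nuclear subunits outside the catalytic cores were all positive, with a median of 0.34 (range 0.00 to 0.67). The 17 core subunits had a median of 0.21, with 13 positive, and the 21 assembly factors 0.21, with 19 positive. These classes also differ in transcript length, with medians of 693.5 bases for the other subunits, 1623 for core subunits and 1487 for assembly factors (GENCODE M21), beside 2713 for all tested genes.

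Transcript length was related to the fold change across the whole table, not among respiratory chain genes alone. All tested genes under 700 bases had a median log2 fold change of 0.40 (85.3% positive), those of 700 to under 1500 bases 0.21 (77.8%), those of 1500 to under 3000 bases -0.008 (48.8%) and longer ones -0.13 (32.8%). The nuclear respiratory chain genes had medians of 0.36 (37 of 37 positive), 0.28 (37 of 37), 0.11 (15 of 20) and 0.29 (7 of 8) in the same classes. By annotated length they thus lay near other genes of their length under 1500 bases, and higher above that. Each length is that of 1 annotated transcript, and which transcripts these cells expressed was not tested. Genes that used a shorter transcript would stand in the wrong class. The longest class holds only 8 nuclear genes, among them Atp5g1 (4715 bases), Ndufb2 (4371), Cox17 (3690) and Ndufab1 (3479). Across the 102 nuclear genes with a known length, which share the same 6 libraries, Spearman's rho between log2 fold change and length was -0.50 and Pearson's r with log2 length -0.55.

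After a smooth trend on length and GC content was removed from each library, the nuclear median was 0.071, with 75 of 104 genes positive. The mitochondrial median was 0.35, with 13 of 13 positive, beside 0.037 for all tested genes. Genes without a known length had no trend removed and are counted in these values. By length class the nuclear medians then ran 0.002, 0.074, 0.18 and 0.38, and rho was 0.50, the opposite sign. Atp5g1 (log2 fold change 0.56; edgeR adjusted p = 0.0221) and Ndufb2, an accessory subunit of complex I, were then the 2 called genes, both higher (against 2.43% of all tested genes called higher). Both have long annotated transcripts, 4715 and 4371 bases, and the removal raised their log2 fold changes, from 0.39 and 0.42 to 0.56 and 0.54. Both calls thus depend on annotated lengths that were not tested in these cells. Ndufb11 was at 0.24 (edgeR adjusted p = 0.245) and Atp5h at 0.20 (edgeR adjusted p = 0.279).

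**Figure D4:**
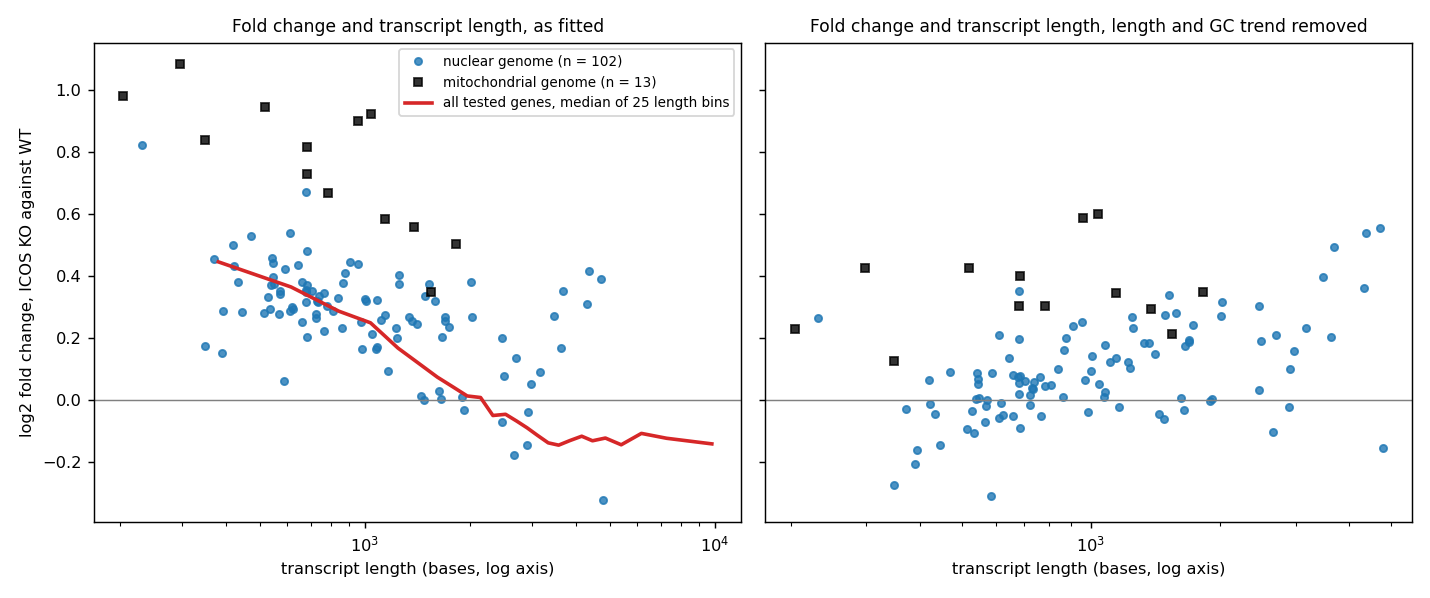
Log2 fold change of ICOS KO against WT (y axis) against transcript length on a log axis (x axis) for the 102 nuclear (circles) and 13 mitochondrial (squares) genes with a known length, as fitted (left) and with the length and GC trend removed (right). The red line on the left gives the median of all tested genes in 25 length bins. Short nuclear genes sit along the red line on the left and near 0 on the right, and mitochondrial genes stay above 0 in both panels.

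The same test called few genes anywhere, 3.29% of all tested genes and 0 of the 117 respiratory chain genes. Lists of the surrounding pathways are therefore too small for their counts of calls to set them apart. Among 34 tested assembly factors outside the symbol rule, 0 were called and the median log2 fold change was 0.12. Among 20 genes of electron carriers, 0 were called and the median was -0.011. Cytochrome c itself (Cycs) stood at 488, 572 and 659.8 CPM in WT and 658 to 898 CPM in ICOS KO (log2 fold change 0.45 ± 0.13, SE; adjusted p = 0.0964, edgeR), and it was called by DESeq2 (adjusted p = 0.0233) and by edgeR after removal of the length and GC trend (0.49, adjusted p = 0.0297). Among 18 genes of the tricarboxylic acid cycle, 0 were called and the median was -0.073, with citrate synthase (Cs) at -0.07 ± 0.09 (SE). Among 21 genes of mitochondrial import and mass, 0 were called and the median was 0.038, with the import receptor Tomm20 at 0.28 ± 0.13 (SE; adjusted p = 0.252, edgeR) and the outer-membrane channel Vdac1 at -0.41 ± 0.16 (SE; adjusted p = 0.182, edgeR).

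Genes that control mitochondrial transcripts gave 1 call. Among 22 genes of mitochondrial transcription and RNA handling, 0 were called, 9 were positive, and the median was -0.18, beside -0.004 over all tested genes, of which 49.6% were positive. The medians of this list and of the other lists were not adjusted for transcript length. All tested genes of 3000 bases and over had a median of -0.13, with 32.8% positive. Whether these lists differ from genes of like length was not tested. The mitochondrial RNA polymerase Polrmt stood at 61.1, 53.9 and 49.0 CPM in WT and 49.7, 32.2 and 39.9 CPM in ICOS KO (edgeR adjusted p = 0.177), with ICOS KO replicate 1 just above the lowest WT library. Its log2 fold change of -0.43 became -0.24 after removal of the length and GC trend. Lrpprc, which stabilises mitochondrial messenger RNAs, was at -0.60 ± 0.21 on the log2 scale (SE; adjusted p = 0.161, edgeR). Among 10 tested nuclear regulators, 1 was called lower and 0 higher, 2 were positive, and the median was -0.14. The called gene was Myc, a growth regulator that also acts on mitochondrial genes, which fell from 99.8, 85.8 and 87.2 CPM in WT to 70.7, 61.2 and 62.4 CPM in ICOS KO (log2 fold change -0.49 ± 0.11, SE; adjusted p = 0.0375, edgeR). The call of Myc was lost when any library but ICOS KO replicate 1 was left out, with adjusted p from 0.0607 to 0.21. Nrf1, the factor of the motif above, stood at 107, 111 and 95.8 CPM in WT and 92.5, 67.0 and 82.2 CPM in ICOS KO, with every ICOS KO library below every WT library but no call (log2 fold change -0.37 ± 0.13, SE; adjusted p = 0.145, edgeR). Without ICOS KO replicate 1, Nrf1 (-0.48, edgeR adjusted p = 0.0462) and Polrmt (-0.60, edgeR adjusted p = 0.0411) were called lower, against 7.69% of all tested genes called in either direction. Neither was called with any other library left out.

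**Figure D5:**
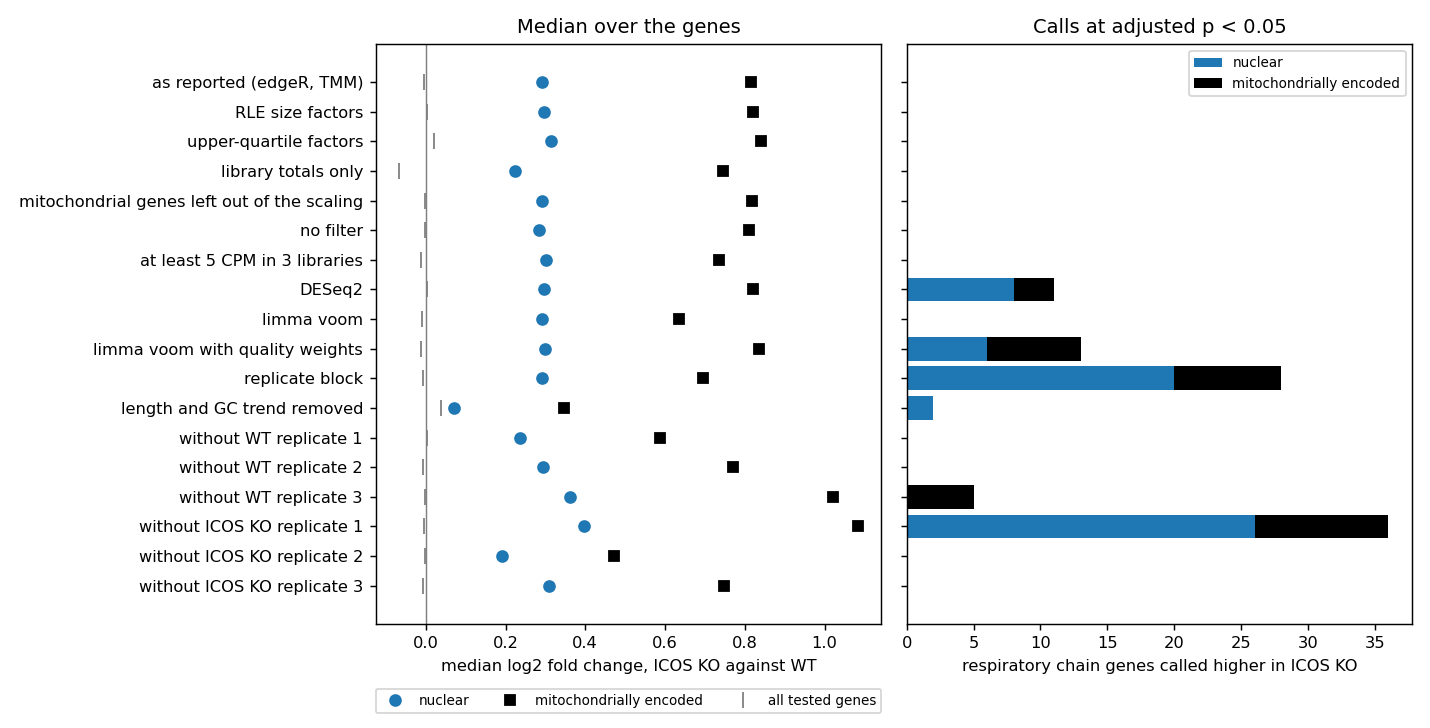
Median log2 fold change (left, x axis) of the nuclear (circles), mitochondrial (squares) and all tested genes (ticks), and the number of respiratory chain genes called higher in ICOS KO (right, x axis), under each processing alternative (y axis). The nuclear and mitochondrial medians lie above 0 in every alternative shown, with the nuclear one lowest at 0.071 after removal of the length and GC trend, and the calls run from 0 to 36.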

How the data were processed

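RNA of 6 libraries of sorted and cultured mouse lung ILC2s, 3 WT and 3 ICOS KO, was amplified from 10 pg with a low-input full-length cDNA kit, per the labels' protocols. The values are estimated counts for each gene, deposited by the authors as 1 table in which 38.9% of values were not whole (over 1e-06 from a whole number). The submitters' processing notes name STAR 2.7.8, Partek 10.0 and DESeq2 and the build mm10. How reads were counted, with which annotation and whether by strand, is not given in the sources used here, so values of paralogs and of overlapping genes are uncertain. The series' design text speaks of duplicates, but 3 libraries per genotype were present and used.

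Counts were rounded, filtered with filterByExpr (13691 genes) and tested with the quasi-likelihood test of edgeR 4.0.16 (R 4.3.3) after TMM scaling, ICOS KO against WT with no covariate, and p-values were adjusted over all tested genes by Benjamini-Hochberg with a threshold of 0.05. Counts varied between libraries with a common biological coefficient of 18.5%. CPM are TMM-normalised. No molecular identifiers are named, so reads are not independent molecules. No library was a copy of another (chi-square per degree of freedom of at least 8.85). Alternatives were other scalings and filters, DESeq2 1.42.0, limma 3.58.1 (voom, with and without quality weights), a block for the replicate number, leaving out each library, and removal of a loess trend (span 0.5) on GC content and transcript length, which 97.8% of tested genes had. The script was tested on simulated counts.

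The genes and lists were chosen with earlier results of these data known. Named with values were all mitochondrial genes, all complex II subunits, the 2 nuclear genes of smallest p and the 1 of highest level per kilobase in each complex, the gene nearest to the threshold, and tissue paralogs. Cox8b, Cox8c and Ndufa4l2 are not analysed here, and 1 gene that was tested and counted is not reported by name. Ndufs1, Uqcrc2, Cox15, Atp5a1, Ndufb2, Cyc1, Polrmt, Lrpprc, Vdac1 and Tomm20 were named after their values were seen. Positions and lengths are those of GENCODE M21 (GRCm38), found for 118 of the 120 genes by symbol. Lengths are of the principal transcript, the longest where a gene had more than 1, or else of the longest coding transcript. Markers were also looked up for B and plasma cells (2 of 7 tested called higher, Cd79b and Igkc), T cells (1 of 4 lower, Cd3e), macrophages and dendritic cells (1 of 6 lower, Csf1r), neutrophils (0 of 2), eosinophils (0 of 2), lung epithelium (1 of 5 higher, Epcam), endothelium (0 of 1) and fibroblasts (none tested). Of 6 tested RNA quality genes, which include Malat1 and mt-Rnr2, 1 was called higher (Hba-a1). All 6 were positive, with a median log2 fold change of 0.81, beside 0.82 over the 13 mitochondrial genes. The list summed to 1514 to 2391 CPM in WT and 1923 to 4175 CPM in ICOS KO. Their part in the results was not tested.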

Additional observations from a re-analysis of the deposited data

How the results depend on the processing

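The median log2 fold change kept its sign and moved by less than the spread between libraries under every scaling, filter, tool and left-out library tried, from 0.19 to 0.40 for nuclear and 0.47 to 1.09 for mitochondrial genes. The exception was the removal of the length and GC trend, which gave 0.071 and 0.346, and these fell short of the first fit by more than that spread. The count of respiratory chain genes called higher was 0 as reported, 11 with DESeq2, 13 with voom and quality weights, 2 after removal of the length and GC trend, and 0 to 36 when 1 library was left out. Over all genes, 451 were called as reported, 929 with DESeq2, 906 with voom and quality weights, and 193 to 1090 when 1 library was left out. The cause was not tested. Library totals in place of TMM moved the median of all tested genes by over 0.06, to -0.068, and put 28.2% rather than 39% of all calls higher, while the removal of the trend put 55.2% higher.

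With the replicate number as a replicate block, 28 respiratory chain genes were called higher (20 nuclear, 8 mitochondrial, against 2.73% of all tested genes) and 784 genes in all. Libraries of the same number had correlations of 0.087, 0.078 and 0.064 in their deviations from the group means. Each library correlated best with its own number, a hint from the data and not the design, so the libraries share only a number.

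Signs turned for genes near 0 in the first fit and for some farther from it, among them mt-Nd3 (0.84), Uqcr10 (0.38), Cox6a1 (0.34), Cox6b1 (0.30), Ndufb7 (0.30), Ndufa4 (0.29) and Cox7a1 (0.29), none of them called. With library totals only, Cox6b2 was at -0.008 and Uqcrc2 at -0.054. With voom and quality weights, mt-Nd3 was at -0.105 and Cox6b2 at -0.012. After removal of that trend, the values were -0.046 for Ndufb7, -0.045 for Uqcr10, -0.017 for Cox6a1, 0.003 for Atp5b, -0.05 for Cox4i1, -0.008 for Cox6b1, -0.307 for Cox6b2, -0.159 for Cox7a1, -0.049 for Cox7a2, -0.056 for Ndufa4, 0.034 for Atp5a1, -0.002 for Uqcrc2 and -0.191 for Atpif1. With 1 library left out, Uqcrc2 ran from -0.054 to 0.069, Cox6b2 from -0.138 to 0.232, mt-Nd3 from -0.482 to 1.339, Atp5b from -0.066 to 0.004, Atp5a1 from -0.121 to 0.008 and Atpif1 from -0.016 to 0.311. Scaled to the total of their own set, the medians were 0.186 for mitochondrial and 0.052 for nuclear genes.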

Other observations

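The table also held 11 columns with respiratory chain symbols that carry the pseudogene tag, which the symbol rule leaves out. The most abundant was Ndufb1-ps, the mouse symbol under which a complex I accessory subunit is listed, at 66.9, 82.4 and 87.7 CPM in WT and 82.5, 128 and 74.3 CPM in ICOS KO (log2 fold change 0.27 ± 0.19, SE; edgeR adjusted p = 0.443). Its groups overlapped, and ICOS KO replicate 3 was below WT replicate 2. Ndufa12-ps stood at 14.4, 15.5 and 19.9 CPM in WT and 17.5, 21.8 and 21.2 CPM in ICOS KO. Atp5l2-ps was lower in level but had separated libraries, at 3.41, 1.998 and 2.89 CPM in WT and 4.52, 6.16 and 6.83 CPM in ICOS KO (log2 fold change 1.08 ± 0.33, SE; edgeR adjusted p = 0.105). Estimated counts can divide reads between such copies and their parent genes.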
